A study of Mus musculus with 12 samples.

Results

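The genes described here are 52 genes of mitosis, among them the cyclins and kinases that start it, the kinetochore and spindle checkpoint, the mitotic kinesins, the anaphase machinery and the proteins of cytokinesis. They are a list of named genes, looked up among the 56980 gene IDs of a deposited count table; 52 of 52 were found by symbol and 52 had enough counts to be tested. RNA sequencing was done on mouse bone marrow-derived macrophages, which are cells flushed from the marrow of the hind leg bones and grown for 7 days in culture medium conditioned by L929 cells. The 12 libraries formed 4 groups of 3. WT_M0 held wild-type cells and cKO_M0 cells of the genotype RankCre-Regnaes3cKO, both without stimulation. WT_M1 and cKO_M1 held the same genotypes given 100 ng/ml of lipopolysaccharide (LPS) plus 10 ng/ml of interferon-gamma. The genotype name stands for a conditional knockout of Regnase-3, an RNA-binding protein encoded by Zc3h12c, with a Cre recombinase named after Rank, the receptor encoded by Tnfrsf11a. The controls were wild type, and no Cre-only control is described in the labels. The sources used here do not give strain, age, sex or the duration of the stimulation. Nor do the labels say whether the 3 libraries of a group came from different mice, so that p-values measure the spread between these libraries, which may be technical.

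Mitosis begins when Cdk1, bound to a cyclin, is switched on, after which chromosomes condense and a spindle of microtubules attaches to their kinetochores. The spindle checkpoint holds back the anaphase-promoting complex (APC/C) until every kinetochore is attached; the APC/C then releases separase, the sister chromatids part and the cell divides. Most genes of this machinery are transcribed late in the cell cycle, from promoters that often hold CCAAT boxes and a cell cycle homology region (CHR), so that dividing cells carry their transcripts and resting cells carry few. Macrophages grown from marrow with the growth factor supplied by L929 medium divide in culture, and LPS with interferon-gamma is known to stop their division.

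Library totals lay between 41721452 and 42197986 counts. The levels below are CPM, the usual depth-normalised counts, scaled with TMM factors, and 3 counts were worth between 0.0581 and 0.0902 CPM in a library. The macrophage markers Csf1r, Adgre1, Cd68, Mertk, Itgam, Fcgr1 and Lyz2 were detected in every group, with a summed level between 13992 and 18420 CPM. Zc3h12c had between 3463 and 4484 counts in cKO_M1 against 5424 to 6392 in WT_M1, while the 703 to 944 counts of cKO_M0 overlapped the 794 to 878 of WT_M0. Counts over the whole gene include any exons left after the deletion, and the labels do not name the deleted part.

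The sum over the 52 genes was 5024 ± 348 CPM in WT_M0 (SD, n = 3 here and in every group below) and 5928 ± 146 CPM in cKO_M0. With stimulation it was 403 ± 35.4 CPM in WT_M1 and 312 ± 9.93 CPM in cKO_M1. These sums held 0.608% of the counts of a WT_M0 library on average, 0.722% in cKO_M0, 0.0325% in WT_M1 and 0.0262% in cKO_M1. The ranges of the libraries did not overlap between any of the 4 groups, at 4815 to 5427, 5774 to 6065, 372 to 442 and 303 to 322 CPM. Most of the difference between the sums of WT_M1 and cKO_M1 lay in Spdl1, Mki67 and Tpx2. The log2 fold change of cKO against wild type in M1 was above 0 for 29 of the 52 genes and below 0 for 23. In bulk RNA, fewer cells in mitosis and less of the 52 transcripts in each cell cannot be told apart.

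**Figure D1:**
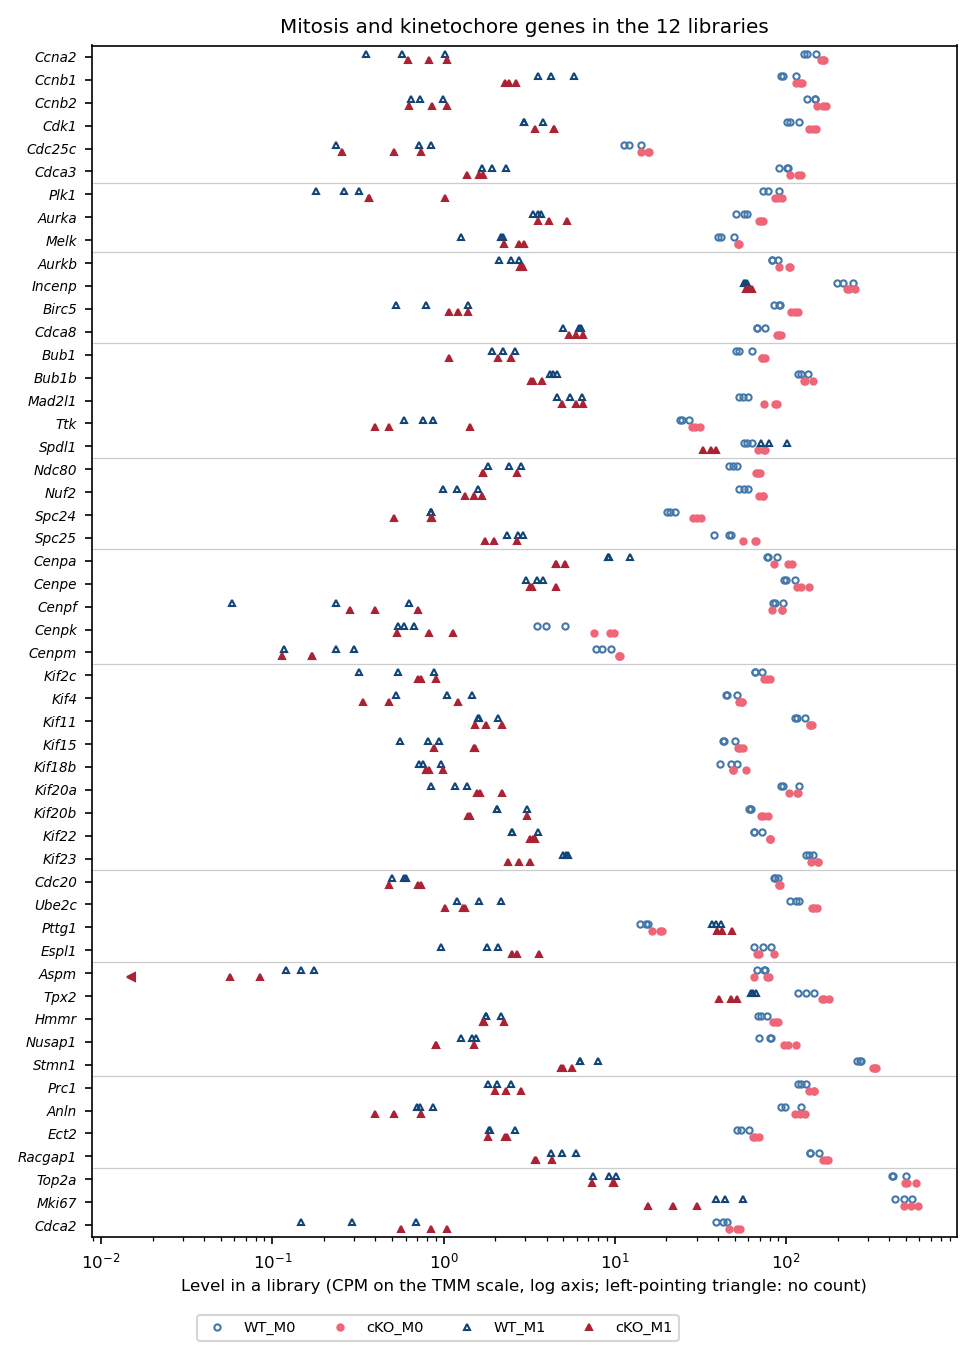
Level of each of the 52 mitotic genes in the 12 libraries, in CPM on the TMM scale (log axis), with 1 symbol per library (circles M0, triangles M1, open WT, filled cKO), a left-pointing triangle for a library with no count, and grey lines between role groups. The M1 triangles lie left of the M0 circles in nearly all rows, whereas those of Pttg1 lie to the right, those of Spdl1 lie on both sides of the circles, and those of Tpx2 and Incenp lie left of them by less than those of most genes.

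Per kilobase of the deposited gene length, the level in WT_M0 ran from 0.801 ± 0.160 CPM for Cenpk to 139 ± 3.76 for Stmn1, which encodes the microtubule destabiliser stathmin. After Stmn1 came Ccnb2 (cyclin B2) at 93.2 ± 5.86, then Incenp at 50.7 ± 5.73, Top2a at 49.3 ± 5.59, Mki67 at 48.4 ± 5.41 and Cdc20 at 46.5 ± 1.19 CPM per kilobase, and the last 4 of these lay within 1 SD of a neighbour in that order. In WT_M1 the order was another. Spdl1 led at 24.3 ± 4.49 CPM per kilobase, followed by Pttg1 at 19.6 ± 1.13, Tpx2 at 13.8 ± 0.415, Incenp at 13.4 ± 0.264 and Mki67 at 4.61 ± 0.866. In cKO_M1 Pttg1 (21.7 ± 2.29) and Incenp (13.9 ± 0.582) stood before Spdl1 (10.5 ± 0.920) and Tpx2 (9.99 ± 1.22), the last 2 within their spread of each other.

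The effect of stimulation was asked first, as M1 against M0 within each genotype. In wild-type cells 50 of the 52 genes fell, where 37.1% of all 15110 genes tested were lower, and 2 rose, where 34.2% of all genes were higher. In cKO cells 51 fell, beside 36% of all genes, and 1 rose, beside 34.2%. The median log2 fold change of the 52 genes was -5.11 in wild type and -5.44 in cKO, beside -0.07 and -0.04 over all genes. A fall of at least 32-fold was called for 28 of the 52 in wild type and for 36 in cKO, which was the case for 1.72% and 1.96% of all genes. The largest adjusted p over the 52 genes was 0.000910 in wild type and 8.76e-07 in cKO (edgeR's quasi-likelihood F-test, Benjamini-Hochberg adjustment over all genes, here and below). For 52 of 52 genes the libraries of M0 and M1 did not overlap on the TMM scale in either genotype. Over all genes this held for 39.6% on the lower side and 36% on the higher side in wild type, and for 37.6% and 35% in cKO. Scaled by library totals in place of TMM factors, the median of all genes in M1 against M0 moved to -0.65 in wild type and -0.58 in cKO, and that of the 52 genes to -5.69 and -5.98. That scaling called 2769 genes higher and 9000 lower in wild type, against 5175 and 5612 with TMM factors, and 2778 and 8691 against 5168 and 5441 in cKO.

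**Figure D2:**
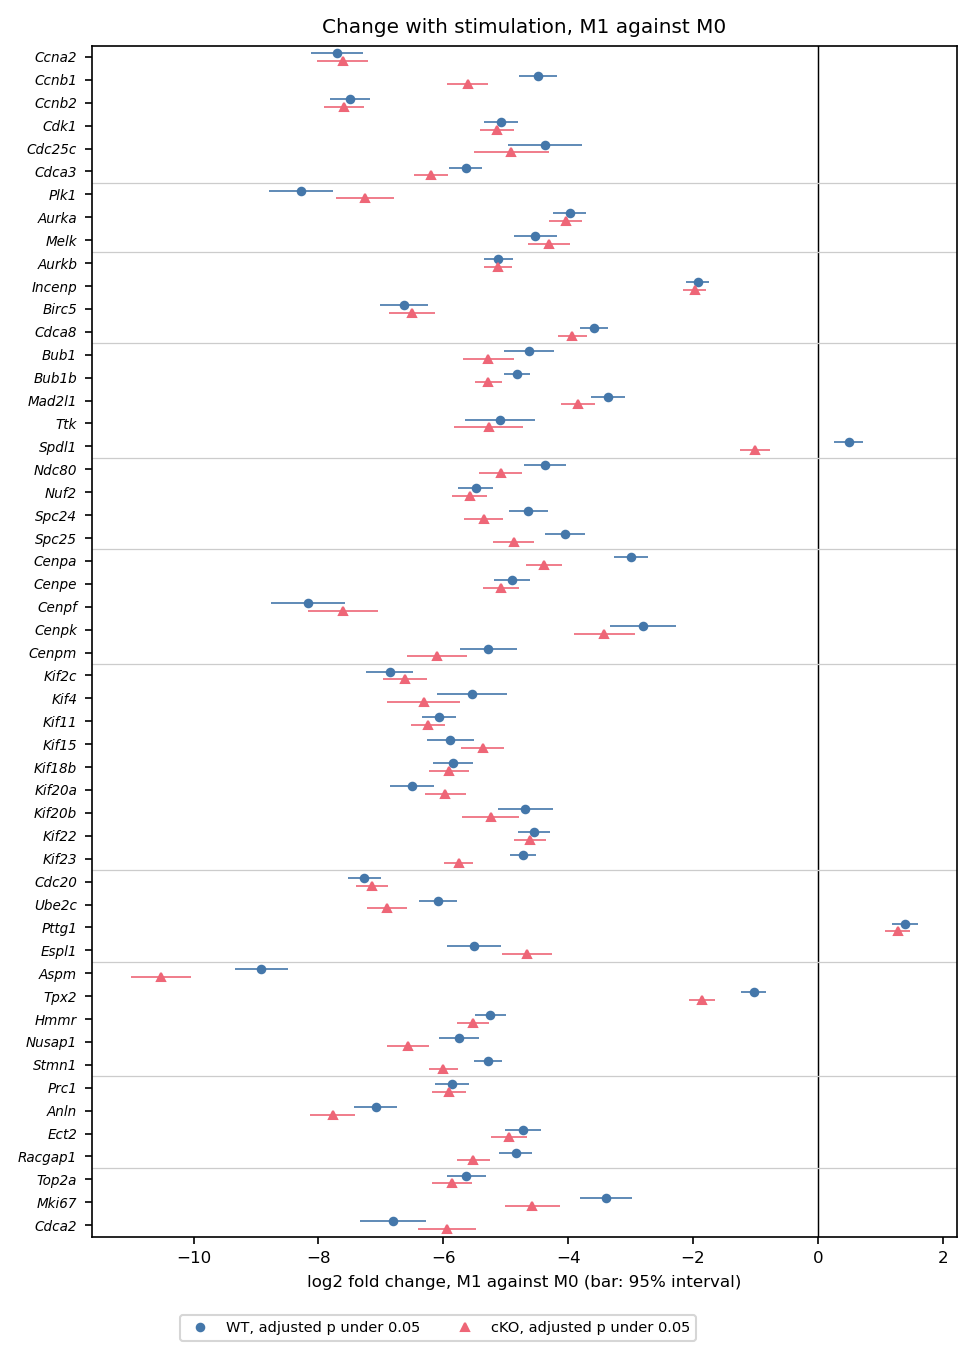
Log2 fold change of M1 against M0 for each of the 52 genes in wild type (circles) and cKO (triangles), with 95% intervals as bars and grey lines between role groups. Nearly all points lie left of zero, with Aspm farthest at -8.91 and -10.52, Pttg1 right of zero in both genotypes, and Spdl1 at 0.49 in wild type (-0.092 when scaled by library totals) and -1.01 in cKO.

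The promoters of 43 of the 52 genes were in a RefSeq table of mouse promoters (build GRCm38.p6, 250 bases before to 50 after the transcript start), some with more than 1 start, which gave 47 promoters of 300 bases. They are described because the genes moved together. The letters CCAAT, on either strand, occurred in 76.6% of these promoters and in 37.4% of the 32851 promoters of the table. The CHR letters TTTGAA, on either strand, occurred in 72.3% against 17.9%, and both kinds of letters together in 61.7% against 6.95%. The E2F letters TTCCCGC or TTGGCGC, on either strand, occurred in 19.1% against 6.81%; a CCAAT box read on the reverse strand can share its last letters with TTGGCGC. These are letter matches and not measured binding sites. Below are the promoters of the 4 genes with the highest level per kilobase in WT_M0 among those with 1 promoter in the table, and those of Pttg1 and Spdl1, chosen after their values were seen because they were the 2 that rose in wild type (Spdl1 stood at -0.092 with library totals in place of TMM factors). All 6 genes lie on the minus strand, each run is printed 5′ to 3′ along the gene, and capitals mark the matched letters.
Ccnb2, chr9:70421505-70421804, minus strand: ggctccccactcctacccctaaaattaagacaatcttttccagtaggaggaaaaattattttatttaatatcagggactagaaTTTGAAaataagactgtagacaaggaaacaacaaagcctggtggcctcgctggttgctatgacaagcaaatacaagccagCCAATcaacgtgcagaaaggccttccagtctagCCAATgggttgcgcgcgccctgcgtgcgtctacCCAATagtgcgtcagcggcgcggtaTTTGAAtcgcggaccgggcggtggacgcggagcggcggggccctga
Top2a, chr11:99024140-99024439, minus strand: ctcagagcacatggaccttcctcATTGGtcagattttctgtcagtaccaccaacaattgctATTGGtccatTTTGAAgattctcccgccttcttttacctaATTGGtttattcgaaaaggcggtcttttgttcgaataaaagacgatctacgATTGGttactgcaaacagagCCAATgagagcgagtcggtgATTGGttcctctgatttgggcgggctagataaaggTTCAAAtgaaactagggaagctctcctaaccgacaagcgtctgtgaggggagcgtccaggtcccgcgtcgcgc
Mki67, chr7:135716330-135716629, minus strand: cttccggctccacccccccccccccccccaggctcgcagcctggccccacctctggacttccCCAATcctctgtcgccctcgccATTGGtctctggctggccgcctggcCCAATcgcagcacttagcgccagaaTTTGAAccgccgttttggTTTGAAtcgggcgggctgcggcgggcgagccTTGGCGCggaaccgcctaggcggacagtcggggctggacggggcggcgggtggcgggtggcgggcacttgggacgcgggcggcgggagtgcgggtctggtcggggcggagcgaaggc
Cdc20, chr4:118437294-118437593, minus strand: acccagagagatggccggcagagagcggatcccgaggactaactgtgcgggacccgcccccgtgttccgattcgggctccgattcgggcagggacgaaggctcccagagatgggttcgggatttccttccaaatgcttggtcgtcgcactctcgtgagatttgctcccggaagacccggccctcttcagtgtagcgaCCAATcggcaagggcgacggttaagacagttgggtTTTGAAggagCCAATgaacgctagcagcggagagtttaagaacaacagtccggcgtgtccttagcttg
Pttg1, chr11:43425932-43426231, minus strand: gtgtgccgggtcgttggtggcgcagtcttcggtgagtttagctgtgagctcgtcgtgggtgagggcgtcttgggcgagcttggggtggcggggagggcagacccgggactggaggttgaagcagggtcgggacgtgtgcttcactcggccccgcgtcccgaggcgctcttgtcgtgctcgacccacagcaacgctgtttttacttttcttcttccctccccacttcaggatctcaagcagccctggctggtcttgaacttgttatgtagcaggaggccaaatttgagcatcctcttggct
Spdl1, chr11:34833592-34833891, minus strand: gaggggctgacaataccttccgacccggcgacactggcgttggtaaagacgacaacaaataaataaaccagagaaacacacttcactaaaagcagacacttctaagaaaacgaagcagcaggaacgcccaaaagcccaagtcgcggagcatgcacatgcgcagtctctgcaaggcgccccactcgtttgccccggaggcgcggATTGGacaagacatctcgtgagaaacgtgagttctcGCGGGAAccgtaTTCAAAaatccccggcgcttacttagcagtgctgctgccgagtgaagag

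The Ccnb2 window held 3 CCAAT matches, starting 87, 54 and 21 bases before the transcript start, and 2 CHR matches. That of Top2a held 6 CCAAT and 2 CHR matches, and that of Mki67 held 3 CCAAT, 2 CHR and 1 E2F match. Cdc20 had 2 CCAAT matches and 1 CHR match. In Spdl1 there was 1 match of each kind, while the Pttg1 window held 0 of them. The windows of Birc5, Mad2l1, Melk, Nuf2 and Nusap1, genes that fell with stimulation in both genotypes, held 0 as well. A link between the matches and the direction of change was not tested.

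The 6 genes of mitotic entry, which are Cdk1, its cyclins Ccna2, Ccnb1 and Ccnb2, the phosphatase Cdc25c that activates Cdk1, and Cdca3, fell in both genotypes, with a median log2 fold change of -5.35 in wild type and -5.90 in cKO. Ccna2 (cyclin A2) fell the most of them in wild type, from 132, 149 and 127 CPM in the libraries of WT_M0 to 1.02, 0.571 and 0.352 in WT_M1, a log2 fold change of -7.70 (SE 0.197). Its cKO libraries went from 165, 159 and 165 to 0.824, 0.624 and 1.05 CPM, -7.61 (SE 0.191) on the log2 scale. Cdc25c fell the least, by 4.38 on the log2 scale (SE 0.278), from 12.03, 14.3 and 11.3 to 0.234, 0.721 and 0.850 CPM in wild type, and from 15.8, 14.2 and 15.5 to 0.256, 0.511 and 0.736 in cKO. Cdk1 itself had a mean of 109 ± 9.45 CPM in WT_M0 and 3.25 ± 0.507 in WT_M1. What was left of the unstimulated level in wild type ran from 0.477% for Ccna2 to 4.80% for Cdc25c.

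The 3 mitotic kinases fell in both genotypes. Plk1, the polo-like kinase of the spindle poles and kinetochores, fell from 73.1, 90.5 and 78.6 CPM in WT_M0 to 0.322, 0.180 and 0.264 in WT_M1. The latter rest on 11, 6 and 9 counts, and over the group the level fell 315-fold (95% counting interval 215 to 483, which covers counting error only). In cKO, Plk1 went from 89.8, 94.0 and 85.9 to 0.369, 0.369 and 1.02 CPM, -7.25 (SE 0.215) on the log2 scale. Aurka (Aurora A, which acts at the spindle poles) fell the least of these kinases, from 50.9, 59.2 and 56.8 to 3.57, 3.70 and 3.34 CPM in wild type and from 71.0, 73.1 and 69.3 to 4.15, 3.55 and 5.26 in cKO. Its log2 fold changes were -3.97 (SE 0.124) and -4.04 (SE 0.122). Melk, the remaining kinase, lay between them at -4.52 (SE 0.164) and -4.31 (SE 0.157).

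All 4 subunits of the chromosomal passenger complex, which corrects faulty attachments of chromosomes to the spindle, fell in both genotypes, but by unequal amounts. Birc5 (survivin) fell from 92.7, 91.0 and 84.7 CPM to 0.790, 1.38 and 0.528 in wild type and from 117, 107 and 112 to 1.08, 1.22 and 1.39 in cKO. The log2 fold changes of Birc5 were -6.64 (SE 0.180) and -6.51 (SE 0.173). Incenp, the scaffold of the complex, fell from 197, 246 and 215 to 56.7, 57.8 and 59.0 CPM in wild type and from 232, 251 and 226 to 59.7, 58.1 and 63.1 in cKO, with log2 fold changes of -1.92 (SE 0.0872) and -1.97 (SE 0.0873). Incenp thus kept 26.4% of its unstimulated level in wild type, where Birc5 kept 1.01%, Aurkb (Aurora B, the kinase of the complex) 2.87% and Cdca8 (borealin) 8.31%.

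Of the 5 spindle checkpoint genes, 4 fell in both genotypes and Spdl1 did not behave alike in the 2 genotypes. Ttk, the kinase that starts the checkpoint signal, fell the most in wild type, from 24.5, 27.2 and 24.1 to 0.760, 0.872 and 0.586 CPM, and from 28.0, 31.5 and 29.6 to 0.483, 1.42 and 0.396 in cKO (-5.09, SE 0.261 and -5.27, SE 0.258 on the log2 scale). Bub1, Bub1b (BubR1) and Mad2l1 (Mad2), which carry the signal to the APC/C, had log2 fold changes of -4.63, -4.82 and -3.36 in wild type. Spdl1 encodes Spindly, which brings dynein to the kinetochore and helps to strip checkpoint proteins from it. Its level was 57.1, 63.5 and 58.9 CPM in WT_M0 and 79.6, 102 and 71.5 in WT_M1, a rise with TMM factors (log2 fold change 0.49, SE 0.111, adjusted p = 0.000910) but a log2 fold change of -0.092 when scaled by library totals (adjusted p = 0.428). In cKO cells Spdl1 fell from 68.7, 73.8 and 75.4 to 36.6, 32.8 and 39.1 CPM (log2 fold change -1.01, SE 0.113, adjusted p = 8.76e-07). On the TMM scale, libraries of M1 were above those of M0 in wild type and below them in cKO, with no overlap in either. The overlap of libraries was taken on that scale only.

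The 4 subunits of the Ndc80 complex, the part of the kinetochore that grips microtubules, fell in both genotypes. Nuf2 fell the most in wild type, from 56.9, 59.6 and 52.8 to 0.994, 1.20 and 1.58 CPM (-5.48, SE 0.133), with 73.3, 69.2 and 73.7 and 1.51, 1.67 and 1.33 CPM in the 2 cKO groups (-5.58, SE 0.131). Spc25 fell the least there, from 47.5, 46.4 and 38.1 to 2.92, 2.34 and 2.73 CPM (-4.04, SE 0.150), and from 66.5, 55.8 and 65.9 to 2.70, 1.96 and 1.75 in cKO (-4.87, SE 0.155). Ndc80 and Spc24 lay between them. Among the 5 centromere proteins Cenpf, a large protein of the outer kinetochore, fell from 83.9, 96.0 and 86.0 to 0.0585, 0.631 and 0.234 CPM in wild type and from 94.3, 94.7 and 82.7 to 0.398, 0.284 and 0.707 in cKO (-8.17, SE 0.279 and -7.60, SE 0.262). Cenpk, a subunit of the inner kinetochore and the gene with the lowest level per kilobase in WT_M0, went from 5.12, 3.50 and 3.96 to 0.673, 0.541 and 0.586 CPM in wild type and from 9.84, 7.54 and 9.39 to 0.824, 1.13 and 0.538 in cKO (-2.80, SE 0.248 and -3.42, SE 0.231). Cenpa, the histone variant that marks centromeres, fell by 2.99 on the log2 scale in wild type (SE 0.126) and by 4.39 in cKO (SE 0.136).

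All 9 kinesins fell in both genotypes, with a median log2 fold change of -5.84 in wild type and -5.91 in cKO. Kif2c (MCAK), which takes microtubules apart at centromeres, fell the most in wild type, from 65.6, 72.0 and 65.7 to 0.877, 0.541 and 0.322 CPM (-6.86, SE 0.175), and from 73.9, 80.3 and 77.2 to 0.739, 0.908 and 0.707 in cKO (-6.61, SE 0.168). Kif22, a motor on the arms of chromosomes, fell the least, from 64.8, 72.1 and 64.7 to 2.52, 3.58 and 2.52 CPM and from 80.3, 81.0 and 81.1 to 3.41, 3.21 and 3.31 (-4.55, SE 0.119 and -4.61, SE 0.117). The wild-type log2 fold changes of the other kinesins lay between these, and included Kif11 (Eg5, which pushes the spindle poles apart) at -6.07 and Kif4, a motor of chromosomes and the midzone, at -5.54.

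Anaphase genes split. Cdc20, which activates the APC/C, fell from 85.0, 89.3 and 86.2 to 0.585, 0.601 and 0.498 CPM in wild type (-7.27, SE 0.123) and from 91.0, 92.0 and 90.8 to 0.739, 0.709 and 0.481 in cKO (-7.14, SE 0.120). Ube2c, the ubiquitin-conjugating enzyme of the APC/C, and Espl1 (separase, the protease that parts sister chromatids) fell as well, with log2 fold changes of -6.08 and -5.51 in wild type. Pttg1, by contrast, rose. It encodes securin, the inhibitor of separase that the APC/C destroys at anaphase. Its level was 15.1, 15.5 and 14.0 CPM in WT_M0 and 41.5, 38.9 and 37.0 in WT_M1, and 16.4, 18.3 and 18.9 and 48.4, 42.4 and 39.5 in cKO_M0 and cKO_M1. The log2 fold change of Pttg1 was 1.39 in wild type (SE 0.0968, adjusted p = 2.86e-09) and 1.28 in cKO (SE 0.0959, adjusted p = 7.50e-09), and 0.81 and 0.74 with library totals. In fold terms the securin transcript rose 2.63-fold in wild type and 2.43-fold in cKO.

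The 5 proteins of the spindle microtubules fell by very different amounts. Aspm, which holds the spindle poles together, had the largest fall of the 52 genes in both genotypes. Its level went from 68.0, 75.3 and 74.6 to 0.146, 0.120 and 0.176 CPM in wild type and from 79.3, 77.2 and 64.8 to 0.0568, 0 and 0.0849 in cKO. The M1 values rest on 5, 4 and 6 counts in WT_M1 and on 2, 0 and 3 in cKO_M1, so that the fitted log2 fold changes of -8.91 and -10.52 depend on few reads. As a ratio of the summed counts, scaled by library size, the fall of Aspm was 492-fold in wild type (95% counting interval 298 to 879) and 1561-fold in cKO (669 to 4808). Tpx2, which activates Aurora A on the spindle, had the smallest fall of these 5, from 118, 145 and 131 to 64.2, 66.5 and 62.7 CPM in wild type (-1.03, SE 0.0965) and from 167, 177 and 162 to 52.0, 47.5 and 40.7 in cKO (-1.85, SE 0.0986). Tpx2 therefore kept 49.0% of its unstimulated level in wild type and 27.7% in cKO. Hmmr, Nusap1 and Stmn1, which bind microtubules or free tubulin, had wild-type log2 fold changes of -5.25, -5.75 and -5.29.

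Genes of the midzone and of cytokinesis fell, 4 of 4 in each genotype. Anln (anillin, of the contractile ring) fell from 93.6, 122 and 98.7 to 0.731, 0.872 and 0.703 CPM in wild type and from 121, 128 and 113 to 0.398, 0.511 and 0.736 in cKO (-7.08, SE 0.162 and -7.77, SE 0.169). Ect2, which switches on the small GTPase of the ring, fell the least of them, from 51.8, 60.9 and 54.6 to 1.84, 2.61 and 1.88 CPM and from 65.7, 69.1 and 64.2 to 1.82, 2.27 and 2.35 (-4.72, SE 0.134 and -4.95, SE 0.134). The 3 genes of chromosome structure fell too. Cdca2, which recruits a phosphatase to chromatin at mitotic exit, went from 38.8, 45.2 and 42.8 to 0.292, 0.691 and 0.147 CPM in wild type (-6.81, SE 0.248) and from 51.6, 54.1 and 46.4 to 0.568, 1.05 and 0.849 in cKO (-5.94, SE 0.221). Mki67, the proliferation marker Ki-67, went from 433, 542 and 486 to 43.8, 56.1 and 39.2 CPM in wild type (-3.39, SE 0.195) and from 533, 586 and 490.1 to 15.5, 21.9 and 30.2 in cKO (-4.57, SE 0.207). Top2a, the topoisomerase that untangles sister chromatids, had log2 fold changes of -5.63 and -5.86.

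The second question was how cKO differed from wild type without stimulation. In M0, 5 of the 52 genes rose in cKO, where 0.662% of all genes were higher, and 0 fell, where 0.953% were lower. They were Cenpk, Mad2l1, Spc24 and Spc25, which act at the kinetochore, and Cdca8 (borealin). At an unadjusted p under 0.05 edgeR gave 29 of the 52 higher and 0 lower, and no share over all genes was taken there. DESeq2 called 15 of the 52 higher and 0 lower, beside 404 and 427 of 11902 genes over the whole table. The fitted log2 fold change lay above 0 for 52 of 52 genes, as it did for 51% of all genes, and its median was 0.26 beside 0.01 over all genes. For 38 of the 52 the 3 cKO_M0 libraries were all above the 3 of WT_M0, which held for 13.3% of all genes. Libraries rather than genes were replicated here, and within WT_M0 replicate 5 was the highest of the 3 for 41 of the 52 genes.

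Cenpk had the largest difference, with 5.12, 3.50 and 3.96 CPM in WT_M0 against 9.84, 7.54 and 9.39 in cKO_M0 (log2 fold change 1.09, SE 0.190, adjusted p = 0.0198), 2.13-fold higher. Mad2l1 read 59.8, 55.7 and 53.2 CPM in WT_M0 and 88.1, 74.4 and 86.0 in cKO_M0 (log2 fold change 0.56, SE 0.110, adjusted p = 0.0287). In both genes the lowest cKO_M0 library was above the highest of WT_M0. Spc24 read 22.4, 21.0 and 20.1 against 30.3, 28.7 and 31.8 CPM (log2 fold change 0.52, SE 0.105, adjusted p = 0.0350), and Spc25, its partner in the Ndc80 complex, 47.5, 46.4 and 38.1 against 66.5, 55.8 and 65.9 CPM (log2 fold change 0.51, SE 0.120, adjusted p = 0.0474). Both remaining subunits of that complex, Ndc80 and Nuf2, had log2 fold changes of 0.49 and 0.35 and did not pass (adjusted p = 0.0578 and 0.0785). Cdca8 read 67.6, 74.9 and 67.4 against 88.9, 93.1 and 90.5 CPM (log2 fold change 0.38, SE 0.0894, adjusted p = 0.0478), again with no overlap. Among the widely used markers that did not pass, Mki67 had a log2 fold change of 0.14 (95% interval -0.24 to 0.52) and Top2a one of 0.24 (-0.01 to 0.49).

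The number of these calls rested on single libraries. It became 1 when WT_M0 replicate 4 was left out, 0 for WT_M0 replicate 6, 3, 2 and 0 for cKO_M0 replicates 1, 2 and 3, 2 and 1 for WT_M1 replicates 10 and 12, 3 for cKO_M1 replicate 8 and 10 for cKO_M1 replicate 7 or 9. It was 15 with no filter on low counts, with only the 6 M0 libraries in the fit or with DESeq2, and 10 with the counts halved. Over all genes the 100 higher calls became 4 without WT_M0 replicate 4, and 0 without WT_M0 replicate 6 or cKO_M0 replicate 3. They became 202 without cKO_M1 replicate 7 and 177 without cKO_M1 replicate 9. With no filter they were 709 of 27501 and with DESeq2 404 of 11902. Only the M0 libraries gave 201 of 14412, and halved counts 160 of 13700. The log2 fold changes lay above 0 for 49 to 52 of the 52 genes when 1 library was left out.

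**Figure D3:**
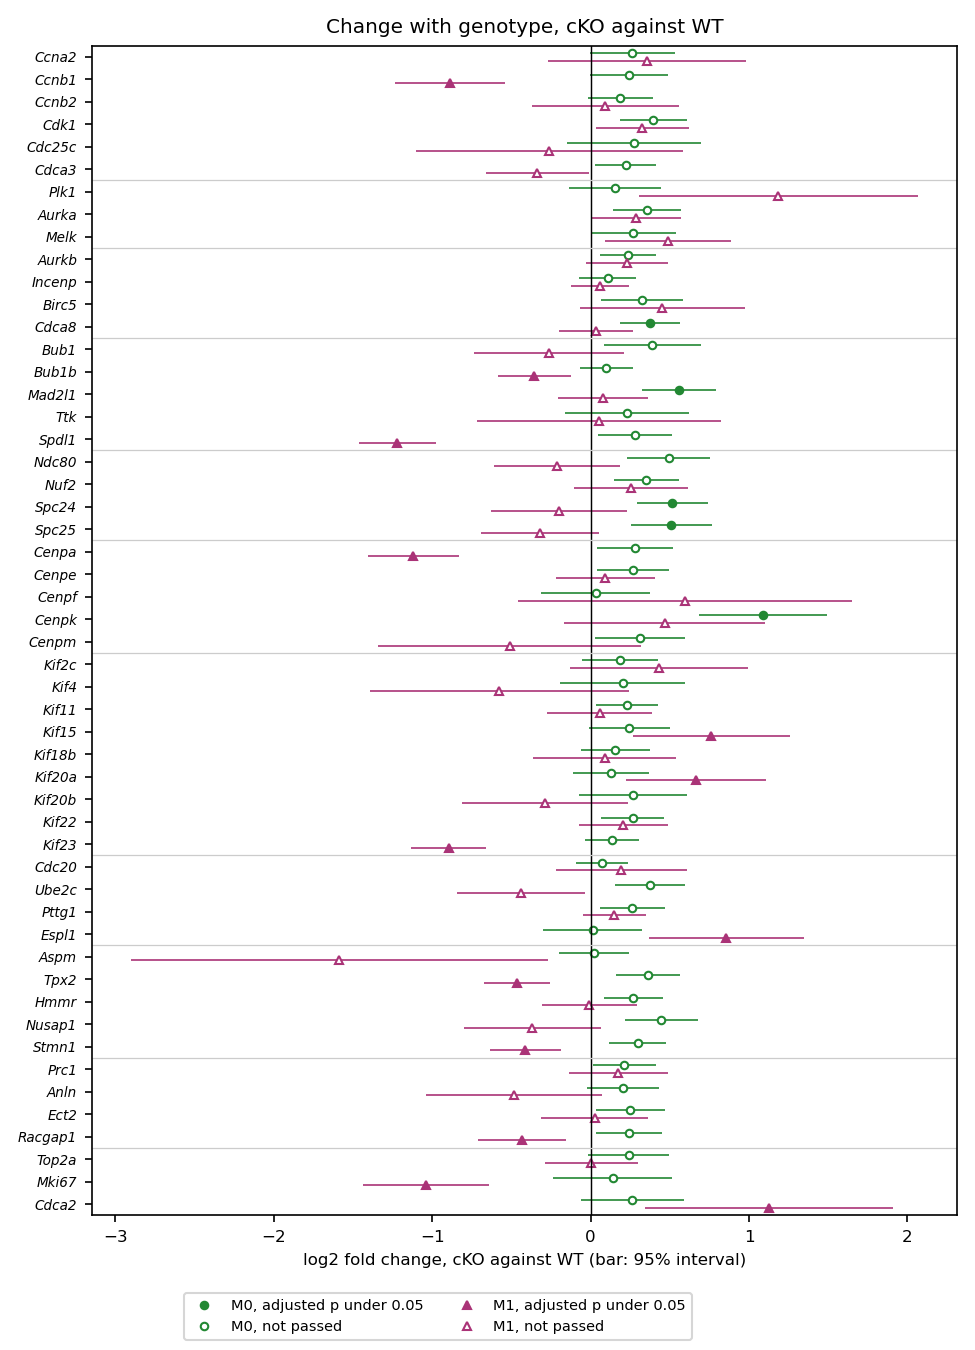
Log2 fold change of cKO against WT for each of the 52 genes in M0 and in M1, with 95% intervals as bars and filled symbols where the adjusted p was under 0.05. The M0 points lie at or above zero, from 0.01 for Espl1 to 1.09 for Cenpk, while the M1 points spread to both sides, from -1.59 for Aspm to 1.19 for Plk1.

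After stimulation, 13 of the 52 genes passed between cKO and wild type. In M1, 9 of the 52 genes were lower in cKO, where 9.67% of all genes were, and 4 were higher, where 8.98% of all genes were. Those that fell were Spdl1, Cenpa, Kif23, Mki67, Ccnb1, Tpx2, Stmn1, Racgap1 and Bub1b, and those that rose were Cdca2, Espl1, Kif15 and Kif20a. The libraries did not overlap on the lower side for 9 of the 52, beside 16.3% of all genes, and on the higher side for 5, beside 17.4%. The share of the 52 genes that was higher in cKO was thus under that of all genes by both counts, and the share with no overlap on the lower side was near it. The median log2 fold change of the 52 genes was 0.04, beside 0.02 over all genes, although their summed level was lower in cKO_M1 than in WT_M1. With library totals in place of TMM factors, 1982 genes were higher and 1239 lower over the whole table, against 1357 and 1461.

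Spdl1 had the smallest p of the 52 genes in this comparison. It read 79.6, 102 and 71.5 CPM in WT_M1 and 36.6, 32.8 and 39.1 in cKO_M1 (log2 fold change -1.22, SE 0.114, adjusted p = 3.14e-05), a level 2.33-fold lower. Tpx2 read 64.2, 66.5 and 62.7 against 52.0, 47.5 and 40.7 CPM (log2 fold change -0.47, SE 0.0970, adjusted p = 0.00387). These were 2 of the 4 genes that kept the highest levels per kilobase in WT_M1; the other 2, Pttg1 and Incenp, had log2 fold changes of 0.15 (95% interval -0.05 to 0.35) and 0.06 (-0.12 to 0.24) and did not pass. Mki67 read 43.8, 56.1 and 39.2 CPM in WT_M1 and 15.5, 21.9 and 30.2 in cKO_M1 (log2 fold change -1.04, SE 0.186, adjusted p = 0.00141), with cKO_M1 replicate 9 the closest to the wild type. Cenpa read 9.24, 12.3 and 9.14 against 5.08, 4.51 and 4.53 CPM (log2 fold change -1.12, SE 0.135, adjusted p = 9.79e-05). In each of these 4 genes every cKO_M1 library was below every WT_M1 library.

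Kif23, a motor of the centralspindlin complex at the midzone, read 5.18, 4.99 and 5.30 CPM in WT_M1 and 2.39, 3.18 and 2.74 in cKO_M1 (log2 fold change -0.90, SE 0.111, adjusted p = 0.000100). Its partner in centralspindlin, Racgap1, read 4.91, 5.92 and 4.25 against 3.41, 3.46 and 4.30 CPM (log2 fold change -0.43, SE 0.130, adjusted p = 0.0304), and here the libraries overlapped. Both subunits of centralspindlin were thus called lower in stimulated cKO cells, but the call of Racgap1 did not hold under every other setting. Ccnb1 (cyclin B1) read 3.57, 5.80 and 4.22 CPM against 2.27, 2.41 and 2.66 (log2 fold change -0.89, SE 0.163, adjusted p = 0.00170), whereas Ccnb2 had a log2 fold change of 0.09 (95% interval -0.37 to 0.56). Stmn1 read 6.29, 7.96 and 6.24 against 5.60, 4.85 and 4.95 CPM (log2 fold change -0.41, SE 0.105, adjusted p = 0.0127) and Bub1b 4.62, 4.36 and 4.19 against 3.75, 3.23 and 3.31 (log2 fold change -0.36, SE 0.108, adjusted p = 0.0314). For Ccnb1, Stmn1 and Bub1b the 2 groups did not overlap.

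The 4 genes that were higher in cKO_M1 had low levels. Espl1 read 1.78, 0.962 and 2.08 CPM in WT_M1 and 2.50, 2.67 and 3.59 in cKO_M1 (log2 fold change 0.86, SE 0.229, adjusted p = 0.0169). Kif20a, a motor that carries the passenger complex to the midzone, read 1.37, 0.842 and 1.17 against 1.56, 2.18 and 1.64 (log2 fold change 0.67, SE 0.206, adjusted p = 0.0348). For both, the groups did not overlap. Kif15, a spindle motor, read 0.936, 0.811 and 0.557 against 0.881, 1.50 and 1.53 CPM (log2 fold change 0.76, SE 0.232, adjusted p = 0.0320) and Cdca2 0.292, 0.691 and 0.147 against 0.568, 1.05 and 0.849 (log2 fold change 1.13, SE 0.368, adjusted p = 0.0434), with overlapping libraries in each. Plk1 and Aspm had larger fitted differences, 1.19 and -1.59, on 11, 6 and 9 counts against 13, 13 and 36 and on 5, 4 and 6 against 2, 0 and 3, and neither of the 2 passed (adjusted p = 0.0576 and 0.0873).

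Spdl1, Cenpa, Kif23, Mki67, Ccnb1 and Tpx2 passed under every one of the 18 other settings run, which include each library left out in turn. The other 3 lower calls and the 4 higher ones did not. The number of higher calls was 0 with only the 6 M1 libraries in the fit, 1 with the counts halved, 1 without WT_M1 replicate 12 or cKO_M1 replicate 9 and 2 without cKO_M1 replicate 8. The number of lower calls was 6 with only the M1 libraries, without WT_M1 replicate 11 or without cKO_M1 replicate 8. Over all genes the 1357 higher and 1461 lower calls became 844 and 1331 of 13524 with only the M1 libraries. They became 671 and 987 without WT_M1 replicate 11, and 709 and 985 without cKO_M1 replicate 8. Without WT_M1 replicate 12 they were 1217 and 1469, and without cKO_M1 replicate 9 they were 1384 and 1698. Halved counts gave 1348 and 1457 of 13700.

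**Figure D4:**
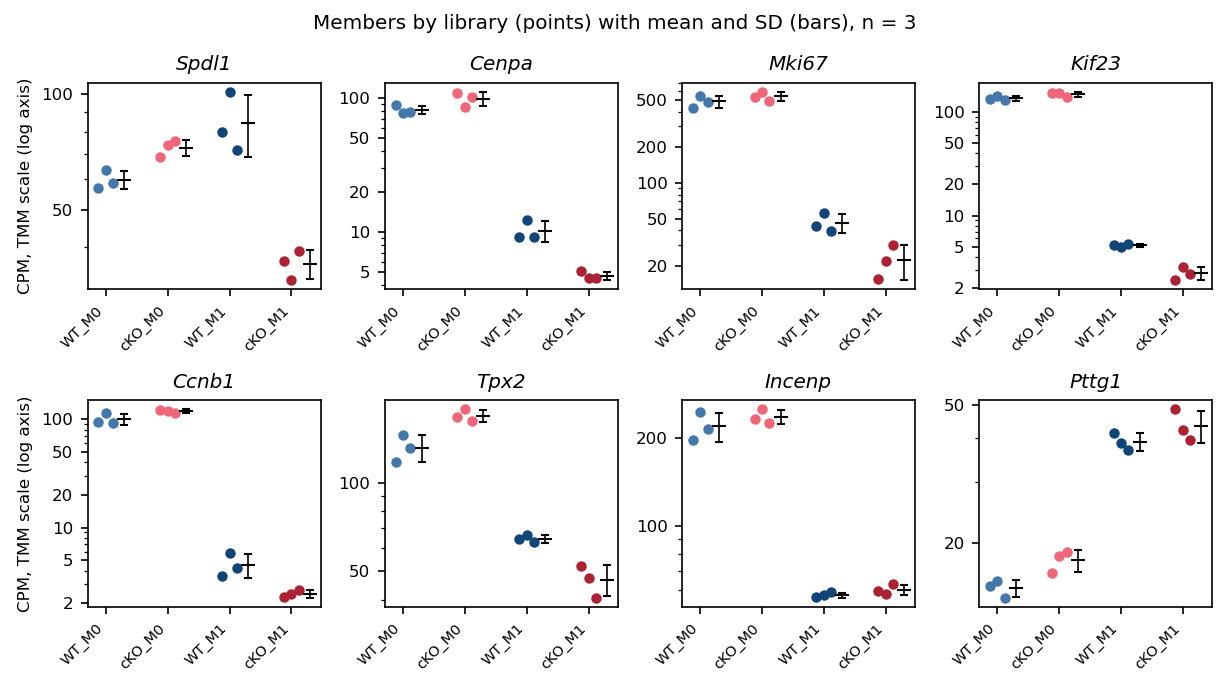
Level in CPM on the TMM scale (log axes, which differ between panels) of 8 genes in each library (points), with the mean and SD of each group beside them (n = 3). Spdl1 lies at 71.5 to 102 CPM in the WT_M1 libraries and at 32.8 to 39.1 in those of cKO_M1. Cenpa, Mki67, Kif23, Ccnb1 and Tpx2 are lower in M1 than in M0, Tpx2 by the least of these, and lowest in cKO_M1. Incenp lies at 56.7 to 63.1 CPM over the 6 M1 libraries, and Pttg1 is higher in M1.

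The third question was whether the cKO difference in M1 departed from that in M0, tested as 1 contrast over the 4 groups. The departure was negative for 12 of the 52 genes, where 4.14% of all genes passed on that side, and positive for 0, where 4.02% did. At an unadjusted p under 0.05 edgeR gave 20 negative and 4 positive, and no share over all genes was taken there. DESeq2 called 16 negative and 1 positive, beside 983 and 845 of 13408 genes over the whole table. The median departure was -0.26 on the log2 scale, beside -0.00392 over all genes, and it lay above 0 for 11 of the 52 genes, as for 49.6% of all. The 12 genes were Spdl1, Cenpa, Mki67, Ccnb1, Kif23, Spc25, Tpx2, Ube2c, Nusap1, Stmn1, Racgap1 and Bub1b. Among these 12, Spdl1 had the largest departure at -1.50 (SE 0.158, adjusted p = 0.000480), the cKO difference being 0.28 in M0 and -1.22 in M1. For Cenpa it was -1.40 (SE 0.176, adjusted p = 0.000815), from 0.28 in M0 and -1.12 in M1. The 2 centralspindlin genes had departures of -1.03 (Kif23) and -0.67 (Racgap1).

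Spc25, Ube2c and Nusap1 passed for the departure but not for cKO against wild type in M1. For Spc25 the cKO difference was 0.51 in M0 and -0.32 in M1, a departure of -0.83 (SE 0.213, adjusted p = 0.0273). Ube2c read 114, 118 and 105 CPM in WT_M0, 151, 142 and 145 in cKO_M0, 1.61, 2.16 and 1.20 in WT_M1 and 1.31, 1.02 and 1.33 in cKO_M1, a departure of -0.82 (SE 0.216, adjusted p = 0.0314). Nusap1, which bundles spindle microtubules, read 81.2, 81.0 and 69.1, 115, 97.8 and 102, 1.55, 1.26 and 1.47 and 0.909, 0.908 and 1.50 CPM in the same 4 groups (-0.81, SE 0.230, adjusted p = 0.0418). In these 3 genes the mean of cKO was above that of wild type in M0 and below it in M1. Ccnb1, Cenpa, Kif23, Mki67, Spdl1, Stmn1 and Tpx2 passed under every one of the 17 other settings. The count of 12 became 7 without WT_M0 replicate 6 or cKO_M1 replicate 8, and 8 without cKO_M0 replicate 1 or 3 or WT_M1 replicate 10 or 11. It was 18 with no filter on low counts. Over all genes the 625 negative calls became 326 without WT_M0 replicate 6 and 306 without cKO_M1 replicate 8. They became 495 and 349 without cKO_M0 replicates 1 and 3, and 488 and 398 without WT_M1 replicates 10 and 11. With no filter they were 1186 of 27501.

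For the wider mitotic machinery, 119 further genes were listed in 8 groups, of which 118 were found and tested. In M1 against M0 in wild type, 97 of the 118 fell and 11 rose, beside 37.1% and 34.2% of all genes, with a median log2 fold change of -2.22; in cKO 101 fell and 10 rose, beside 36% and 34.2%, with a median of -2.52. Condensin, which compacts chromosomes, fell in 8 of 8 genes, among them Ncapd2 (-5.38), Ncaph (-4.47) and Smc4 (-2.87). Further centromere and kinetochore genes fell in 25 of 26, such as Cenpi (-4.19), Ska3 (-4.04) and Oip5 (-4.68). Further spindle and cytokinesis genes fell in 20 of 21, such as Spag5 (-6.04), Cep55 (-5.31) and Ckap2 (-6.89). The 6 further checkpoint genes fell, with Kntc1 at -4.94, Zwilch at -3.50 and Trip13 at -2.90. So did 8 of 9 regulators of mitotic entry, with Cdc25b at -3.99, Bora at -3.58 and Mastl at -3.49.

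Cohesin, the APC/C core and the transcription factors of the cell cycle were less uniform. Of 13 genes of cohesin and its protectors 8 fell, among them Esco2 (-6.33), Sgo2a (-5.22) and Cdca5 (-3.75), and 3 rose. Of 17 genes of the APC/C and its inhibitors 11 fell, with Fbxo5 (Emi1, an inhibitor of the APC/C) at -5.89 and Anapc15 at -2.09, and 2 rose, among them Anapc16 (0.85; 0.27 with library totals). Of 18 genes of the FOXM1, MYBL2, E2F and DREAM group, which drive or repress mitotic genes, 11 fell, with E2f7 at -6.26, Mybl2 at -4.68 and Tfdp1 at -2.32, and 4 rose. With library totals, 2 of the 118 genes were higher and 111 lower, so that the number of rises depended on the scaling.

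In cKO against wild type, 4 of the 118 genes passed in M0, where Tacc3, Zwint, Tfdp1 and Cep55 were higher and 0 were lower. Of all genes 0.662% were higher in M0 and 0.953% lower. DESeq2 called 20 of the 118 higher and 0 lower, beside 404 and 427 of 11902 genes over the whole table. At an unadjusted p under 0.05 edgeR gave 48 and 0, with no share over all genes taken. In M1, 6 were higher and 8 lower, on both sides a smaller share than the 8.98% and 9.67% of all genes. Among regulators of mitotic entry Ccnf (log2 fold change -0.92, SE 0.107, adjusted p = 7.55e-05), Wee1 (-1.24) and Cdc25b (-0.71) were lower in cKO_M1; Wee1 holds Cdk1 off and Cdc25b switches it on. Lower values were also found for the spindle genes Plk4, which drives centriole duplication (-0.77), and Haus8 (-0.62), the condensin subunit Ncapg2 (-0.76), the inner kinetochore gene Cenpu (-0.80) and the APC/C subunit Cdc27 (-0.30; adjusted p = 0.0622 with library totals). Fbxo5 (0.95), Kifc1 (0.51), Hjurp (0.39), Cenpc1 (0.56), Cenpt (0.30) and the cohesin subunit Stag2 (0.26) were higher. Lin9, of the FOXM1, MYBL2, E2F and DREAM group, had a log2 fold change of -0.46 and did not pass (adjusted p = 0.0538). Of the 6 further checkpoint genes 0 passed in M1, also at an unadjusted p under 0.05 and with DESeq2; the smallest p was that of Mad1l1 (log2 fold change 0.14, adjusted p = 0.404). The departure between M1 and M0 was negative for 10 of the 118 and positive for 0, beside 4.14% and 4.02% of all genes. With DESeq2 the departure was negative for 13 and positive for 0, beside 983 and 845 of 13408 genes over the whole table. At an unadjusted p under 0.05 edgeR gave 25 and 3, with no share over all genes taken.

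Markers of other cells moved with some of these groups. The 5 markers of stem and progenitor cells, which divide, summed to 9.72 to 13.2 CPM in WT_M0, 7.07 to 10.5 in cKO_M0, 1.96 to 2.34 in WT_M1 and 0.653 to 1.08 in cKO_M1. Most of that sum in M0 was Kit and Sox4. Of the 4 that could be tested 3 fell with stimulation in each genotype, and 2, Kit and Cd34, were lower in cKO_M1 than in WT_M1. The 6 osteoclast markers summed to 202 to 230 CPM in WT_M0 and 106 to 177 in cKO_M0. In M1 they summed to 136 to 192 in WT_M1 and 52.6 to 73.0 in cKO_M1. Most of the M0 sum was Atp6v0d2, at 161 to 183 CPM in WT_M0, which did not pass in M0 (adjusted p = 0.152). Of the 5 tested, 1 was lower in cKO in M0 and 3 in M1. With stimulation 2 of the 5 rose and 3 fell in each genotype. B and plasma cell markers summed to at most 7.96 CPM in any library. The cKO_M0 libraries differed in 1 of them, Jchain, with 284, 8 and 2 counts in replicates 1, 2 and 3 against 99 to 216 in WT_M0. Cd79b did not split in this way, with 117, 89 and 124 counts in the same 3 libraries. Markers of T and NK cells, erythroid cells, and mast cells and basophils summed to at most 0.751 CPM in a library. The 9 markers of neutrophils and their progenitors summed to at most 3.27 CPM in M0 and 16.2 in M1. Most of the M1 sum was S100a8, at 6.07 to 15.6 CPM. Of the 5 neutrophil markers tested, 1 rose and 2 fell with stimulation in each genotype. The 5 stromal markers summed to at most 4.83 CPM, in WT_M0 replicate 4. That library had 88, 73 and 73 counts of Col1a1, Col1a2 and Col3a1, where WT_M0 replicates 5 and 6 had 0 to 4. The part of any of these cells in the mitotic genes was not tested.

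Overlapping genes limit some of these values, because the labels do not say whether reads were counted by strand. In the GRCm38 annotation 12 of the 52 genes overlap a gene on the opposite strand. Of the genes with a call between genotypes these were Cenpk with Ppwd1, Cdca8 with 9930104L06Rik, Kif20a with Cdc23, Nusap1 with Oip5 and Ube2c with Tnnc2. The cKO log2 fold change in M0 was 0.08 for Ppwd1 and -0.03 for 9930104L06Rik, and neither passed. Cdc23 stood at 0.14 in M1 and did not pass, and Tnnc2 had 0 counts. 9930104L06Rik stood at 0.60 in M1 (adjusted p = 0.00309), with a departure of 0.63 (adjusted p = 0.0341). Ppwd1 had means of 11.9 CPM in WT_M0 and 12.5 in cKO_M0, above Cenpk. Cdc23 had means of 14.9 CPM in WT_M1 and 16.5 in cKO_M1, above Kif20a. The part of these partners in the calls was not tested. Oip5, itself a mitotic gene, had a mean of 10.1 CPM in WT_M0 and 13.4 in cKO_M0 without stimulation, and of 0.394 and 0.331 CPM after it. Its cKO log2 fold change was 0.41 in M0 and -0.25 in M1, a departure of -0.66 (adjusted p = 0.212) on the same side as that of Nusap1, and its part in the values of Nusap1 was not tested.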

How the data were processed

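RNA sequencing of 12 libraries gave 1 deposited table of raw read counts per gene with a gene length in bases. Per the submitters' processing notes the authors trimmed with Trimmomatic 0.39 and used HISAT2 2.2.1 and featureCounts 2.0.3, with SAMtools 1.16.1 and the build GRCm39; strand option and annotation release: not given in the sources used here. Among values of 1 to 10, 60.9% were even (50% by parity alone), so counts halved and rounded were run as an alternative; whether mates were counted singly was not tested. Groups came from the sample titles.

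Counts were tested in R 4.3.3 with edgeR 4.0.16: genes kept by filterByExpr (minimum count 10, minimum total 15; 15110 of 56980), TMM factors (mean 1.21 in WT_M0, 1.22 in cKO_M0, 0.808 in WT_M1, 0.840 in cKO_M1), 1 mean per group over the 12 libraries, quasi-likelihood F-tests with p-values adjusted after Benjamini and Hochberg over all genes tested, and calls at an adjusted p under 0.05. Standard errors come from the log2 fold change and the F statistic; intervals are 95% intervals. Alternatives were RLE factors, library totals, no filter, halved counts, only the groups compared, DESeq2 1.42.0 and each library left out.

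The genes and lists were chosen with earlier results of these data known. Values in every library are given for genes called between genotypes or in the departure, and for the largest and smallest wild-type change with stimulation in each role group. Of each further list up to 3 genes with the smallest p among those that passed are named, or 1 where 0 passed, for M1 against M0 in wild type and cKO against wild type in M1; other names were chosen after their values were seen. Symbols came from a reference name table (52073 IDs matched), promoters from RefSeq (GRCm38.p6), and opposite-strand genes from a GRCm38 annotation; no coordinates of the count table's build were used.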

Additional observations from a re-analysis of the deposited data

Results flagged for a closer look

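For 12 of the 52 genes the difference between cKO and wild type was not the same in M1 as in M0, by the contrast over the 4 groups (edgeR's quasi-likelihood F-test, adjusted over all genes). Each value is the cKO log2 fold change in M1 less that in M0. It was -1.50 for Spdl1, -1.40 for Cenpa, -1.18 for Mki67, -1.13 for Ccnb1 and -1.03 for Kif23, and these 5 had adjusted p values between 0.000480 and 0.0123. It was -0.83 for Spc25, -0.83 for Tpx2, -0.82 for Ube2c, -0.81 for Nusap1, -0.71 for Stmn1, -0.67 for Racgap1 and -0.46 for Bub1b. Bub1b was nearest to the threshold (adjusted p = 0.0487), and it missed the threshold in 11 of the 17 other settings, as did Nusap1. With 3 libraries a group, single libraries were not tested as outliers.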

How the results depend on the processing

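For M1 against M0, the 50 falls and 2 rises in wild type and the 51 and 1 in cKO were the same counts with each library left out in turn; with library totals 1 gene was called higher in wild type, since Spdl1 turned from 0.49 to -0.092 (adjusted p = 0.428), as such scaling moved the median of all genes down. For cKO against wild type in M0, the 5 higher calls became 15 with no filter on low counts, 10 with counts halved, 15 with only the groups compared and 15 with DESeq2, and ranged from 0 to 10 with 1 library left out; 0 were lower throughout. In M1 the 4 higher calls became 1 with counts halved and 0 with only the groups compared, and ranged from 1 to 5 with 1 library left out, and the 9 lower calls ranged from 6 to 11. For the departure of the cKO difference, 0 positive calls became 2 with no filter and 1 with DESeq2 (0 to 1 with 1 library left out), and the 12 negative calls ranged from 7 to 13. Over the whole table the split of higher and lower genes moved from 100 and 144 to 709 and 473 in M0 with no filter. It moved from 608 and 625 to 796 and 519 in the departure with library totals. With 1 library left out, the higher genes of the whole table ranged from 0 to 202 in M0 and from 671 to 1384 in M1. The lower ones in M1 ranged from 985 to 1698, and the negative departures from 306 to 792. The causes were not tested. At the gene level, 858 alternative values in M0 kept their side of the threshold, 29 lost it and 49 gained it; in M1 these were 880, 39 and 15, and for the departure 823, 38 and 23. No paired analysis was run, because the labels give no pairing and no replicate number is shared between the groups. Whether M0 and M1 cultures shared a mouse is not stated, and the tests treated all libraries as independent. Low M1 levels limit the genotype comparison there: 2 to 5 of the 52 genes had fewer than 10 counts in a library of WT_M1 or cKO_M1.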
